A study of Homo sapiens with 6 samples.

Results

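Surface, enzyme and transporter genes that are used to mark pancreatic cancer stem cells were followed in BxPC-3, a human line derived from a pancreatic adenocarcinoma, 36 h after treatment. The members were the 9 genes CD44, CD24, EPCAM, PROM1, ALDH1A1, ALDH1A3, CXCR4, ABCG2 and LGR5, out of 26255 gene symbols, and they were found by symbol and not by any measured value. RNA was sequenced in 3 groups of 2 libraries each. Parent cells had no treatment, NC-1 cells had a negative control treatment, and miR-4711-5p cells had a miRNA treatment, by transfection of a duplex. Whether NC-1 is the listed negative control duplex or a second, purchased control was not given in the sources used here. All 3 groups were the same single cell line, grown in culture without the other cells of a tumour. The labels do not say whether the replicate libraries came from separate cultures, so the p-values measure the spread between these libraries, which may be technical.

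Cancer stem cells are tumour cells that can renew themselves and seed new tumours, and in pancreatic cancer they have been sorted with antibodies against CD44, CD24 and EpCAM, with prominin-1 (CD133) and CXCR4, or by the activity of aldehyde dehydrogenases. CD44 and EpCAM act in adhesion, CD24 is a heavily glycosylated protein anchored to the membrane, and ABCG2 pumps dyes and drugs out of the cell, which gives rise to the side population in flow cytometry. LGR5 is a receptor for R-spondins that amplifies Wnt signalling and marks stem cells of the gut. A microRNA lowers mRNAs mainly by pairing of its seed, bases 2 to 8, with sites in the 3′ UTR of a transcript. These genes are also expressed in cells that are not stem cells, and in RNA from a whole culture fewer cells with a marker and less RNA per cell cannot be told apart.

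The sequences below show the miRNA and the seed motifs that the members hold. The first line is the mature miRNA from RefSeq (GRCh38.p14, chr1:59733269-59733291, minus strand), with the seed in capitals. The other lines are taken from GENCODE transcripts on GRCh37, which is the same build as the hg19 used for the deposited values, and their capitals mark the matched motif. In ALDH1A1, ALDH1A3 and PROM1 it pairs with the whole seed. In CD44 it is a 7mer-A1 motif, which pairs with bases 2 to 7 and ends in an A opposite base 1. Opposite base 8, the CD44 sequence has a T where the full match has a C.
miR-4711-5p: uGCAUCAGgccagaagacaugag
CD44, 3′ UTR: tctgttctTGATGCAgttgctat
ALDH1A1, coding sequence: tgtgttagCTGATGCcgacttgg
ALDH1A3, coding sequence: tccccctgCTGATGCtggtgtgg
PROM1, coding sequence: ttattattCTGATGCctctggtg

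The motifs searched were CTGATGC (7mer-m8), TGATGCA (7mer-A1) and CTGATGCA (8mer), which contains both shorter motifs. They were searched on the sense strand only, because the target is the mRNA. Of the 8 members searched, CD44 was the only one with a match in a 3′ UTR. Its 7mer-A1 match lies at chr11:35252126-35252132 on the plus strand, at position 1246 of a 3′ UTR of 3069 bases in the last exon, and it is present in 2 of 25 annotated coding transcripts. These 2 include the canonical transcript and are the only ones annotated with a 3′ UTR of that length. Many of the others have no annotated 3′ UTR. A match was held by 17.1% of the 3′ UTRs of 10556 tested genes, and by 27.8% of the 1529 whose length was within 1.25-fold of that of CD44. The matches in ALDH1A1 (chr9:75533641-75533647, minus strand, exon 8 of 13), ALDH1A3 (chr15:101434174-101434180, plus strand, exon 6 of 13) and PROM1 (chr4:16035066-16035072, minus strand, exon 5 of 28) lie in coding sequence. They are present in 1 of 4, 1 of 4 and 8 of 11 annotated coding transcripts. The transcripts without them have shorter coding sequences, of 609 to 716 bases for ALDH1A1, 306 to 1215 for ALDH1A3 and 43 to 173 for PROM1. Of the coding sequences of 10568 tested genes, 24.4% held a match, and within 1.25-fold of the length of each member the share was 21.7% for ALDH1A1, 21.8% for ALDH1A3 and 35.8% for PROM1. The searched transcripts of EPCAM, CXCR4, ABCG2 and LGR5 held none of these letters in the 3′ UTR or coding sequence. A match of letters is a description of the sequence and no measure of binding.

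CD24 was not searched, because no gene of that symbol was found in this annotation, which lists 4 copies named CD24P1 (chromosome 1), CD24P5 (chromosome 3), CD24P2 (chromosome 15) and CD24P4 (chromosome Y). The locus at which the deposited CD24 values were counted was not given in the sources used here, and reads can be shared between such copies. The pair of primers that the study used to measure CD24 by PCR was located on GRCh37, with the exact match in capitals.
CD24 forward: TGAAGAACATGTGAGAGGTTTGAC
CD24 reverse: GAAAACTGAATCTCCATTCCACAA
The forward primer matched exactly at chrY:21154162-21154185 on the minus strand and at chr15:56364340-56364363 on the plus strand. The reverse primer matched only at chrY:21153978-21154001 on the plus strand. Both primers therefore matched together only beside CD24P4, inside the annotated gene TTTY14, on the build used for these files. Because no gene named CD24 was found in the annotation of this build, the search could not show whether the primers match CD24 itself. Which locus the PCR read was not tested.

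The deposited values are FPKM. In this measure the fragments assigned to a gene are already scaled to its length and to the size of its library. The values summed to between 493145 and 550772 per library and were highest in the Parent libraries, and genes above 0 numbered from 16597 to 17305. Library factors by the median of ratios, an alternative used below, ran only from 0.9988 to 1.013. Factors from the totals ran from 0.949 to 1.06. The number of reads is not in the files, but the steps between low values put the depth of the other libraries between 0.751 and 1.21 of that of Parent replicate 1. The transcription factor KLF5 was used as the check of the treatment. It measured 119.4 ± 7.1 FPKM in Parent, 117.4 ± 4.1 in NC-1 and 63.0 ± 5.3 with miR-4711-5p (SD, n = 2), and it fell 1.89-fold against Parent (limma adjusted p = 8.46e-05). The keratin genes KRT7, KRT8, KRT18 and KRT19 all measured at least 890.1 FPKM in every library. Over all 12040 tested genes, limma called 18.7% higher and 24.7% lower against Parent, and 18.4% and 21.2% against NC-1. Of the 6 listed epithelial and ductal markers, 1 was called higher and 3 lower against Parent, and 2 higher and 4 lower against NC-1. Those lower in both were KRT19 (1.81-fold and 1.41-fold), MUC1 (2.01-fold and 1.62-fold) and CEACAM6 (1.76-fold and 1.85-fold), and the list summed to 6090 to 6436 FPKM in Parent, 5505 to 5740 in NC-1 and 5301 to 5337 with miR-4711-5p. KRT19, MUC1 and CEACAM6 thus fell along with CD44, CD24 and CD9, described below. KRT19 and MUC1 were also lower in NC-1 than in Parent (1.28-fold and 1.24-fold, limma adjusted p = 0.0039 and 0.0469). KRT18 was called higher in both comparisons (1.14-fold and 1.25-fold). KRT8 was called higher against NC-1 (1.19-fold), and KRT7 was called lower against NC-1 (1.13-fold). Neither KRT7 nor KRT8 was called against Parent. The part of these markers in the results below was not tested. Leukocyte markers summed to at most 1.06 FPKM per library and fibroblast markers to at most 2.47. Endothelial markers summed to 1.42 and 1.51 FPKM in Parent, 3.39 and 3.56 in NC-1, and 0.649 and 0.887 with miR-4711-5p, most of it from CDH5, and their part in the results was not tested.

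**Figure D1:**
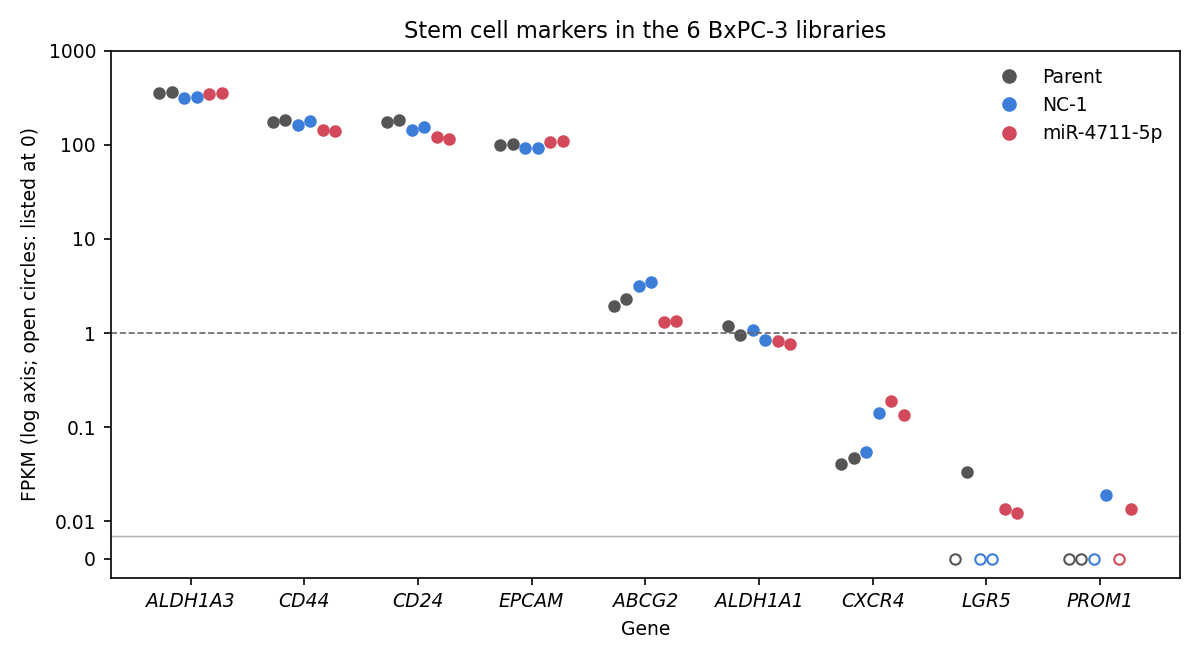
Expression of the 9 stem cell marker genes in each of the 6 libraries, in FPKM on a log axis, with 1 point per library coloured by group, open circles for values listed at 0 and a dashed line at the filter of 1 FPKM. ALDH1A3, CD44, CD24 and EPCAM lie between 91.6 and 363.5 FPKM, ABCG2 and ALDH1A1 between 0.76 and 3.51, and CXCR4, LGR5 and PROM1 below 0.19.

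The markers fell into 3 ranges of expression. ALDH1A3, CD24, CD44 and EPCAM were among the more abundant mRNAs of the cells, with Parent means of 360.4, 180.6, 178.6 and 100.8 FPKM. In that group the ranks of these genes among all symbols were 220, 447, 456 and 865. CD24 and CD44 differed by less than the spread of their Parent libraries, and the steps from ALDH1A3 to CD24 and from CD44 to EPCAM exceeded it. ABCG2 and ALDH1A1 followed at 2.11 and 1.07 FPKM, and CXCR4, LGR5 and PROM1 lay below 0.05 FPKM in both Parent libraries. LGR5 and PROM1 were listed at 0 in some libraries.

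The limma test was run on log2(FPKM + 1) for the 12040 genes that averaged 1 FPKM or more, and p-values were adjusted over all of them by the Benjamini-Hochberg method with a threshold of 0.05. Of the 9 members, 5 passed this filter, and each of these 5 measured over 1 FPKM in every library. With miR-4711-5p against Parent, 3 of the 5 were called, all lower, where 43.4% of all tested genes were called and 24.7% were lower. Against NC-1, all 5 were called, 3 lower and 2 higher, where 39.6% of all tested genes were called, 21.2% lower and 18.4% higher. NC-1 itself differed from Parent in 3 of the 5, 2 lower and 1 higher, where 27.2% of all tested genes were called, 15.1% lower and 12.1% higher. CD44, CD24 and ABCG2 were lower with miR-4711-5p than in both other groups, and EPCAM and ALDH1A3 were higher than in NC-1. The 3 comparisons share libraries, so they are not independent. The median log2 difference of the 5 members was -0.34 against Parent and -0.27 against NC-1, and that of all tested genes was -0.013 and 0.0038. The libraries of the 2 groups did not overlap in all 5 members against Parent, in all 5 against NC-1, and in 4 between NC-1 and Parent, where 74.2%, 72.4% and 65.5% of all tested genes did not overlap.

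The summed FPKM differed between groups, and making the totals of the libraries equal, an alternative chosen after seeing the data, moved the median log2 difference of all tested genes against Parent from -0.013 to 0.11. The split of all called genes against Parent then went from 2255 higher and 2975 lower to 4010 higher and 1776 lower. Against NC-1 it went from 2214 higher and 2549 lower to 2923 higher and 2083 lower, and for NC-1 against Parent from 1456 higher and 1823 lower to 2327 higher and 1000 lower. CD44, CD24 and ABCG2 remained lower with miR-4711-5p in both comparisons on that scale, with log2 differences of -0.20, -0.47 and -0.33 against Parent (limma adjusted p = 0.023, 0.000765 and 0.0386).

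**Figure D2:**
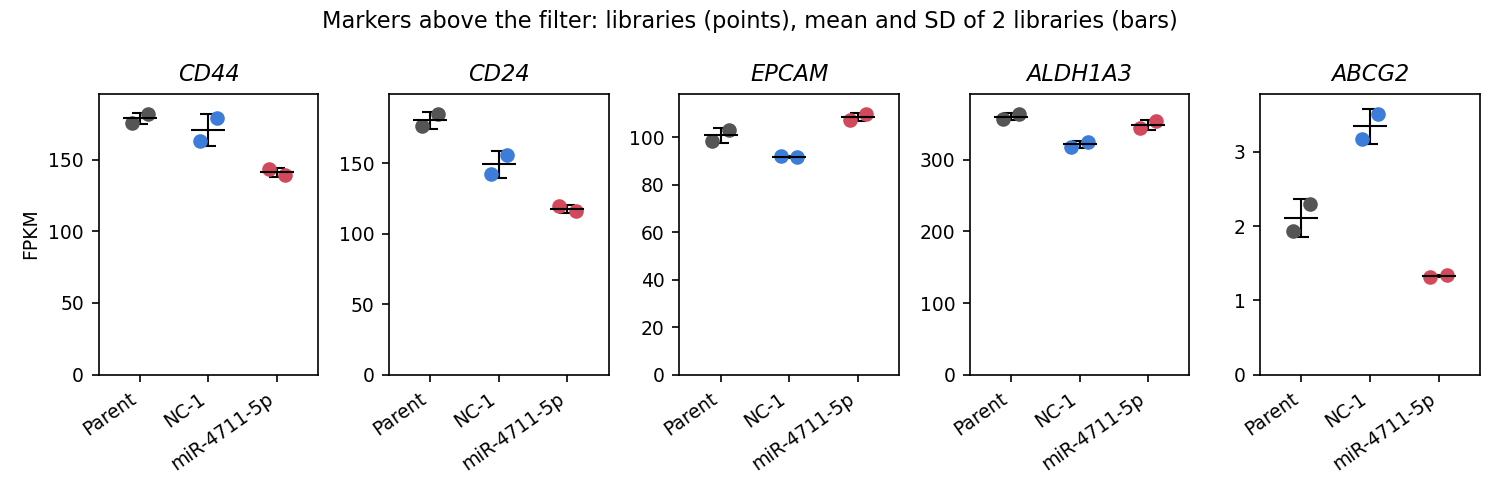
FPKM of the 5 markers above the filter, on linear axes from 0, with points for the 2 libraries of each group and bars for their mean and SD. CD44 and CD24 are lowest with miR-4711-5p at 141.0 and 117.8 FPKM, EPCAM and ALDH1A3 are lowest in NC-1 at 91.9 and 321.7 FPKM, and ABCG2 is highest in NC-1 at 3.34 FPKM.

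CD44, the hyaluronan receptor, measured 175.7 and 181.5 FPKM in the Parent libraries, 162.7 and 178.6 in the NC-1 libraries, and 143.2 and 138.9 with miR-4711-5p. Both miR-4711-5p libraries lay below the other 4, while the Parent and NC-1 libraries overlapped. The gene is at chr11:35160429-35253949 on the plus strand. It fell 1.27-fold against Parent, by 0.34 on the log2 scale (SE 0.054, limma adjusted p = 0.00237), and 1.21-fold against NC-1 (log2 difference -0.27, 95% interval -0.40 to -0.15, limma adjusted p = 0.00671). Without miR-4711-5p replicate 2 the call against NC-1 was lost (adjusted p = 0.055). NC-1 and Parent differed by -0.07 with an interval of -0.19 to 0.06 (limma adjusted p = 0.389). FPKM per gene adds all isoforms of CD44, so the standard form and the variant forms were not separated here.

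The 13 listed partners of CD44 were hyaluronan synthases, ligands, cytoskeletal linkers, sheddases and splicing regulators, and 12 of them were tested. Against Parent 2 rose and 4 fell, where 18.7% and 24.7% of all tested genes did so. Against NC-1 2 rose and 6 fell, where 18.4% and 21.2% did so. The median log2 differences of the list were -0.05 and -0.24. With equal FPKM totals 3 rose and 3 fell against Parent, where 4010 of all 12040 tested genes were higher and 1776 lower. HAS2, which makes hyaluronan, rose from 33.2 ± 0.10 FPKM in Parent and 36.3 ± 0.82 in NC-1 to 54.5 ± 0.29 with miR-4711-5p, 1.64-fold and 1.5-fold (limma adjusted p = 3.36e-05 and 0.000102). ESRP1, a splicing factor that favours the variant exons of CD44, fell from 51.3 and 52.7 to 31.6 FPKM, 1.62-fold and 1.67-fold (limma adjusted p = 8.23e-05 and 7.58e-05). MSN, the linker moesin, fell 1.21-fold and 1.18-fold to 337.6 FPKM.

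CD24 measured 176.3 and 184.8 FPKM in the Parent libraries, 142.5 and 156.1 in the NC-1 libraries, and 119.7 and 115.9 with miR-4711-5p. The 3 groups did not overlap, and NC-1 lay between the other 2. The fall against Parent was 1.53-fold, or 0.61 on the log2 scale (SE 0.055, limma adjusted p = 0.000186). Against NC-1 it was 1.27-fold (log2 difference -0.34, limma adjusted p = 0.00296). NC-1 was itself 1.21-fold lower than Parent (log2 difference -0.27, limma adjusted p = 0.0127), a call that was lost without Parent replicate 2 (adjusted p = 0.0686) and without NC-1 replicate 1 (adjusted p = 0.0569).

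EPCAM, an adhesion protein of epithelial cells at chr2:47572297-47614740 on the plus strand, measured 98.6 and 102.9 FPKM in Parent, 92.1 and 91.6 in NC-1, and 107.4 and 109.7 with miR-4711-5p. The 3 groups did not overlap, with NC-1 lowest and miR-4711-5p highest. The rise of 1.18-fold against NC-1 passed the test (log2 difference 0.24, 95% interval 0.14 to 0.34, limma adjusted p = 0.00424). Against Parent the log2 difference was 0.11 with an interval of 0.0066 to 0.21, and it was not called (limma adjusted p = 0.0801). That comparison depended on the scale of the libraries, since EPCAM was called higher than Parent after median-of-ratios rescaling (adjusted p = 0.0483) and when the FPKM totals of the libraries were made equal (log2 difference 0.24, adjusted p = 0.00368). NC-1 against Parent gave -0.13 with an interval of -0.23 to -0.03 (limma adjusted p = 0.0569).

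Relatives, partners and proteases of EPCAM, CD24 and prominin-1 made a list of 9 genes, of which 8 were tested. Against Parent 4 rose and 1 fell, where 18.7% and 24.7% of all tested genes did so. The counts against NC-1 were also 4 and 1, where the shares were 18.4% and 21.2%. The median log2 differences of the list were 0.08 and 0.17. SPINT1, a protease inhibitor of epithelia, rose 1.28-fold and 1.2-fold, and FHL2, a partner of the EpCAM intracellular domain, rose 1.29-fold and 1.21-fold. The gene that fell was PROM2, the relative of PROM1, at 58.3, 63.3 and 39.1 FPKM in Parent, NC-1 and miR-4711-5p (1.49-fold and 1.62-fold lower, limma adjusted p = 0.000174 and 8.37e-05).

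ALDH1A3, which oxidises retinal to retinoic acid and carries much of the aldehyde dehydrogenase activity measured in many carcinomas, lies at chr15:101417919-101456831 on the plus strand. Its libraries measured 357.4 and 363.5 FPKM in Parent, 318.2 and 325.3 in NC-1, and 344.2 and 354.0 with miR-4711-5p. The 3 groups did not overlap, with NC-1 lowest and Parent highest. Against Parent it differed by -0.05 on the log2 scale with an interval of -0.14 to 0.045 (limma adjusted p = 0.369), and this difference changed sign, to 0.09, with equal FPKM totals (adjusted p = 0.0741). It was called 1.09-fold higher than NC-1 (log2 difference 0.12, limma adjusted p = 0.0468) and 1.12-fold lower in NC-1 than in Parent (log2 difference -0.16, limma adjusted p = 0.0218). The call against NC-1 was lost when any 1 of the 6 libraries was left out, with adjusted p from 0.0641 to 0.215. The call between NC-1 and Parent was lost without Parent replicate 1, Parent replicate 2 or NC-1 replicate 1, with adjusted p of 0.0751, 0.0858 and 0.0832.

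ALDH1A1, the isoform for which stem cell assays were named, lies at chr9:75515587-75695358 on the minus strand and was expressed at a small fraction of the level of ALDH1A3 on the same per-length scale. It measured 1.19 and 0.953 FPKM in Parent, 1.07 and 0.841 in NC-1, and 0.825 and 0.759 with miR-4711-5p. Both miR-4711-5p libraries lay below the other 4, and Parent and NC-1 overlapped. The ratio of means was 0.738 against Parent and 0.828 against NC-1. With a mean of 0.940 FPKM it was below the filter, and in a fit of all 26255 genes without the filter it was not called (log2 difference -0.21, adjusted p = 0.316 against Parent, and -0.12, adjusted p = 0.587 against NC-1). The step of 1 read put it at about 23 to 37 reads per library.

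Among 17 other aldehyde dehydrogenases, 13 were tested. None rose and 8 fell against Parent, where 18.7% and 24.7% of all tested genes did so. Against NC-1 1 rose and 8 fell, where 18.4% and 21.2% did so. The median log2 differences of the list were -0.42 and -0.36. With equal FPKM totals the counts were 2 and 7 against Parent, where 4010 of all 12040 tested genes were higher and 1776 lower. They were 2 and 8 against NC-1, where the split of all tested genes also moved towards higher. ALDH3A1, which detoxifies aldehydes, was the most abundant at 541.4 and 540.3 FPKM in Parent, 739.2 and 737.5 in NC-1, and 139.8 and 157.8 with miR-4711-5p. It fell 3.63-fold against Parent and 4.96-fold against NC-1 (limma adjusted p = 3.36e-06 and 3.18e-06), and it rose 1.37-fold in NC-1 against Parent. ALDH3A2, which oxidises fatty aldehydes, fell 1.56-fold and 1.48-fold to 21.5 FPKM, ALDH3B1 fell 1.71-fold and 2.13-fold to 3.84 FPKM, and ALDH7A1 fell 1.81-fold and 1.67-fold to 3.15 FPKM.

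Retinoid genes, which make, bind or respond to the product of ALDH1A1 and ALDH1A3, numbered 17, and 12 were tested. Against Parent 2 rose and 4 fell, where 18.7% and 24.7% of all tested genes did so. Against NC-1 3 rose and 6 fell, where 18.4% and 21.2% did so. RARG, a retinoic acid receptor, measured 50.7 and 49.7 FPKM in Parent, 47.6 and 51.3 in NC-1, and 18.8 and 21.2 with miR-4711-5p, a fall of 2.51-fold and 2.47-fold (limma adjusted p = 1.61e-05 and 1.95e-05). Its partner RXRA fell 1.39-fold and 1.27-fold, and DHRS9, a retinol dehydrogenase, fell 1.41-fold and 1.36-fold. RARA, another receptor, rose 1.47-fold and 1.43-fold to 11.9 FPKM (limma adjusted p = 0.0108 and 0.0158).

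ABCG2, at chr4:89011302-89152780 on the minus strand, encodes the drug pump. It measured 1.933 and 2.295 FPKM in Parent, 3.18 and 3.51 in NC-1, and 1.32 and 1.34 with miR-4711-5p. The 3 groups did not overlap, with NC-1 highest. The mean was 2.51-fold lower with miR-4711-5p than in NC-1 (log2 difference -0.90, SE 0.10, limma adjusted p = 0.00067) and 1.59-fold lower than in Parent (log2 difference -0.41, limma adjusted p = 0.0163). NC-1 was 1.58-fold higher than Parent (log2 difference 0.48, limma adjusted p = 0.0162). The pseudocount of 1 FPKM makes these log2 differences smaller than the ratios of means. Without Parent replicate 2 or either miR-4711-5p replicate the call against Parent was lost (adjusted p = 0.0713, 0.0742 and 0.0637), and without Parent replicate 1 or NC-1 replicate 2 the call between NC-1 and Parent was lost (adjusted p = 0.0764 and 0.0675). ABCG2 stood on about 89 to 189 reads per library. CDH5, an endothelial marker, ordered the groups in the same way at 0.962, 3.02 and 0.541 FPKM in Parent, NC-1 and miR-4711-5p, and whether the 2 genes are linked was not tested.

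**Figure D3:**
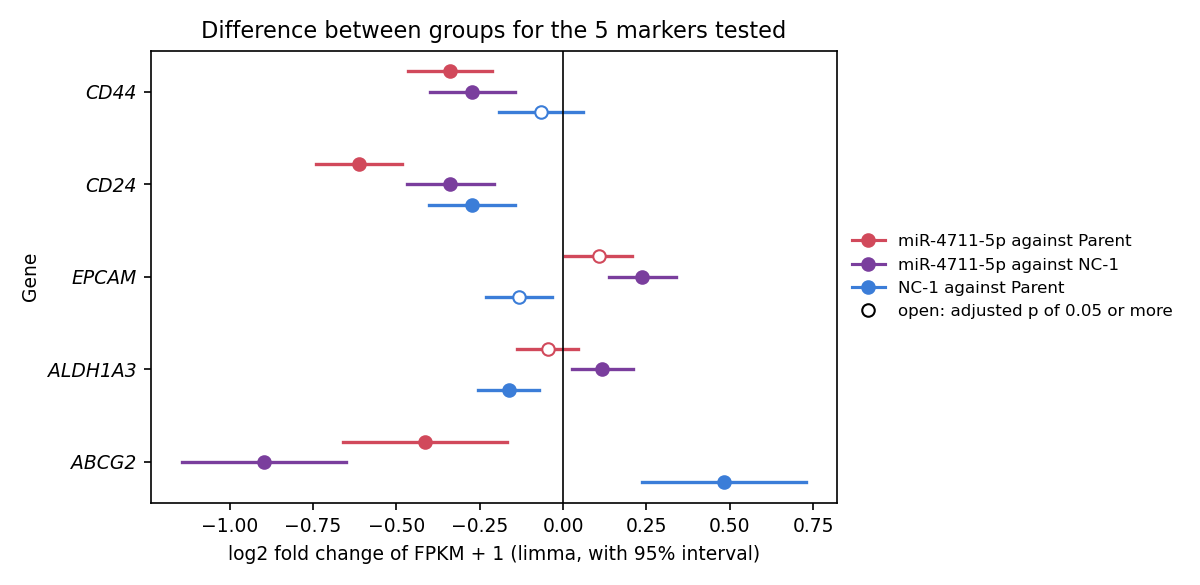
Log2 differences of the 5 tested markers in the 3 comparisons, on the log2(FPKM + 1) scale, with points for the limma estimates and bars for their 95% intervals, and open points for differences that were not called. CD44, CD24 and ABCG2 lie below 0 in both comparisons of miR-4711-5p, EPCAM lies above 0 in both, and the interval of ALDH1A3 against Parent, -0.14 to 0.045, includes 0.

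Of 9 other multidrug transporters, 6 were tested. Against Parent 1 rose and 2 fell, where 18.7% and 24.7% of all tested genes did so. Against NC-1 2 rose and 3 fell, where 18.4% and 21.2% did so. With equal FPKM totals the counts of transporters were 3 and 1 against Parent, where 4010 of all 12040 tested genes were higher and 1776 lower. They were 2 and 2 against NC-1, where the split of all tested genes also moved towards higher. ABCG1, a cholesterol exporter of the same subfamily as ABCG2, was the 1 transporter called higher against Parent. It measured 0.265 and 0.296 FPKM in Parent, 0.324 and 0.516 in NC-1, and 2.96 and 2.46 with miR-4711-5p, 9.66-fold and 6.45-fold higher (limma adjusted p = 0.000211 and 0.000381). Its mean over the 6 libraries passed the filter of 1 FPKM only through the miR-4711-5p group, where it was high, so its call and its place in these counts are a description. ABCC1 (MRP1) fell 1.41-fold and 1.43-fold to 29.0 FPKM. ABCC3 (MRP3) measured 18.9, 25.9 and 15.3 FPKM in Parent, NC-1 and miR-4711-5p and fell 1.23-fold and 1.69-fold, and the call against Parent was lost with equal FPKM totals (adjusted p = 0.065). ABCB1 (P-glycoprotein) was listed at or near 0 in every library, with at most 0.0155 FPKM.

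CXCR4, LGR5 and PROM1 lay so low that their values were whole steps, and each step is what 1 read adds. The steps came out within 0.015 of whole numbers. CXCR4, the receptor for the chemokine CXCL12 at chr2:136871919-136876747 on the minus strand, measured 0.0408 and 0.0468 FPKM in Parent, 0.0544 and 0.143 in NC-1, and 0.190 and 0.135 with miR-4711-5p. These values are 1, 1, 1, 3, 5 and 4 reads in the same order. The miR-4711-5p libraries were above the Parent libraries and overlapped NC-1. From the summed reads and relative depths the ratio to Parent was 3.69 with an exact 95% interval of 0.764 to 35.1, and the ratio to NC-1 was 1.58 with an interval of 0.442 to 7.04, so no difference was detectable at this depth. Intervals and limits of this kind cover counting error only.

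LGR5, at chr12:71833578-71980090 on the plus strand, was listed at 0 and 0.0335 FPKM in Parent, at 0 in both NC-1 libraries, and at 0.0133 and 0.0121 with miR-4711-5p. That is 0, 2, 0, 0, 1 and 1 reads. PROM1, at chr4:15964699-16086001 on the minus strand, was listed at 0 in both Parent libraries, at 0 and 0.0192 FPKM in NC-1, and at 0 and 0.0136 with miR-4711-5p, which is 1 read in each of 2 libraries. A count of 0 allows up to 3 reads, which is 0.0408 to 0.0656 FPKM for PROM1 and 0.0362 to 0.0582 FPKM for LGR5 at the depths of these libraries. The libraries held too few reads of either gene to compare the groups. A listed 0 can also be a failed estimate in this kind of file, since 22 genes with a mean over 10 FPKM were listed at 0 in at least 1 library.

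**Figure D4:**
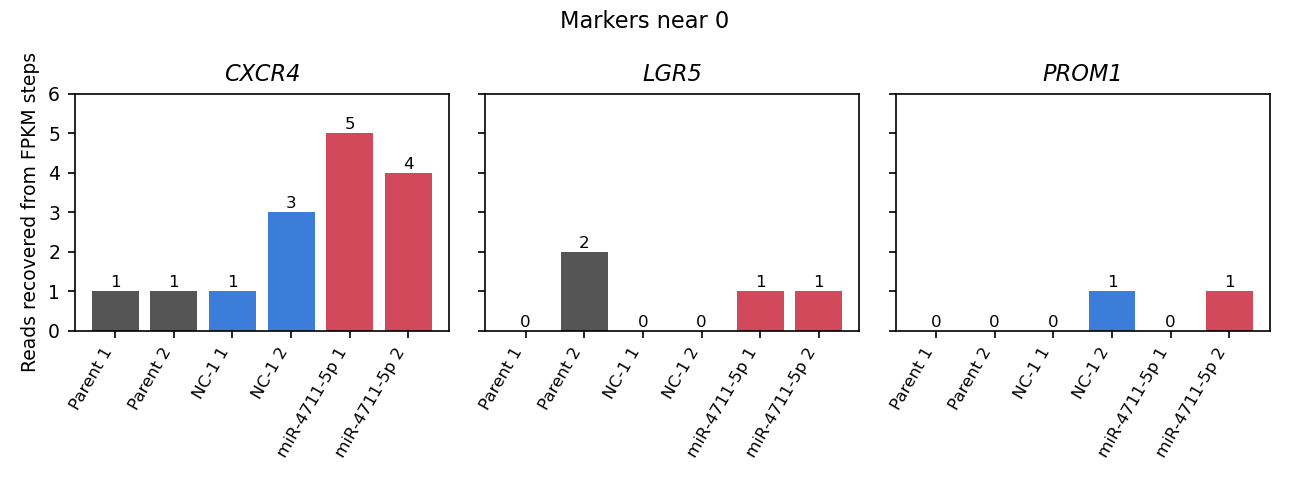
Number of reads behind the values of CXCR4, LGR5 and PROM1 in each library, recovered from the steps of the deposited FPKM and not corrected for depth. CXCR4 has 1 to 5 reads, LGR5 0 to 2 and PROM1 0 or 1.

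The study measured PROM1 by PCR under the name CD133, and the primers show which part of the transcript that assay reads. Capitals mark the exact match.
CD133 forward: TGACAAGCCCATCACAACAT
CD133 reverse: CGCCTGAGTCACTACGTTGC
The forward primer spans the junction of exons 26 and 27 of 28 in the canonical transcript and is present in 4 of 11 coding transcripts. The reverse primer lies in the 3′ UTR in the last exon, at chr4:15970883-15970902, and is present in 6 of 11. The RNA-seq values add all transcripts of the gene.

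Of 11 listed partners of CXCR4, 6 were tested. None rose in either comparison, and 4 fell against Parent and 3 against NC-1. With equal FPKM totals 1 rose against NC-1, where the split of all tested genes also moved towards higher. Among all tested genes 18.7% rose and 24.7% fell against Parent, and 18.4% and 21.2% against NC-1. The G protein subunits GNAI3 and GNAI2, which carry signals from CXCR4 and many other receptors, fell 1.34-fold and 1.26-fold against Parent and 1.44-fold and 1.17-fold against NC-1. The ligand CXCL12 was listed at 0 in all 6 libraries. ACKR3, the second receptor of CXCL12, was below the filter at 0.824 and 1.05 FPKM in Parent, 1.10 and 0.813 in NC-1, and 0.177 and 0.525 with miR-4711-5p.

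The list around LGR5 held 19 other LGR receptors, R-spondins, their ligases and Wnt targets, of which 11 were tested. Against Parent 4 rose and 1 fell, where 18.7% and 24.7% of all tested genes did so. Against NC-1 2 rose and 2 fell, where 18.4% and 21.2% did so. The medians of the list were -0.04 and -0.03, and they were 0.09 and 0.01 with equal FPKM totals. On that scale the medians of all tested genes were 0.11 and 0.05. LGR6, a receptor of the same family, measured 5.45 and 4.96 FPKM in Parent, 3.47 and 3.97 in NC-1, and 2.19 and 2.29 with miR-4711-5p. It fell 2.32-fold and 1.66-fold (limma adjusted p = 0.00025 and 0.0033), and NC-1 was also lower than Parent (limma adjusted p = 0.0194). RNF43, a ligase that removes Wnt receptors from the surface, rose 1.79-fold and 1.38-fold to 6.79 FPKM. It was also 1.3-fold higher in NC-1 than in Parent (limma adjusted p = 0.0347). The Wnt co-receptor LRP6 rose 1.28-fold and 1.19-fold to 7.37 FPKM.

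A further 10 markers that have been used for pancreatic cancer stem cells had 8 tested members. Of these, 1 rose and 5 fell against Parent, where 18.7% and 24.7% of all tested genes did so. Against NC-1 4 fell, where 21.2% did so. The median log2 differences of the list were -0.55 and -0.26. The laminin receptor chains ITGA6 and ITGB4 and the tetraspanin CD9 were among those that fell. ITGA6 measured 189.0 and 189.9 FPKM in Parent, 124.6 and 113.9 in NC-1, and 92.0 and 88.9 with miR-4711-5p (2.1-fold and 1.32-fold lower, limma adjusted p = 1.28e-05 and 0.0012). CD9 measured 309.5 and 302.3, 242.4 and 246.7, and 162.4 and 167.5 FPKM in the same order (1.85-fold and 1.48-fold lower). Both genes were also lower in NC-1 than in Parent, with limma adjusted p = 0.000616 and 0.00259. ITGB4 fell 1.82-fold and 1.63-fold to 81.0 FPKM, and it was not called between NC-1 and Parent.

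Transcription factors and regulators linked to the stem cell state, 14 genes with 9 tested, moved in both directions. Against Parent 3 were higher and 2 lower, where 18.7% and 24.7% of all tested genes were. Against NC-1 4 were higher and 2 lower, where 18.4% and 21.2% were. SOX9, a factor of ductal and progenitor cells, rose from 6.48 and 7.70 to 14.2 FPKM (2.18-fold and 1.84-fold, limma adjusted p = 9.4e-05 and 0.000327). KLF4, a pluripotency factor, rose 1.5-fold and 1.19-fold to 14.9 FPKM, and it was also 1.26-fold higher in NC-1 than in Parent (limma adjusted p = 0.0182). GLI2, a Hedgehog effector, fell 3.06-fold and 3.13-fold to 0.602 FPKM (limma adjusted p = 0.0038 and 0.00386). The mean of GLI2 passed the filter only through Parent and NC-1, where it was high, so its call and its place in these counts are a description.

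**Figure D5:**
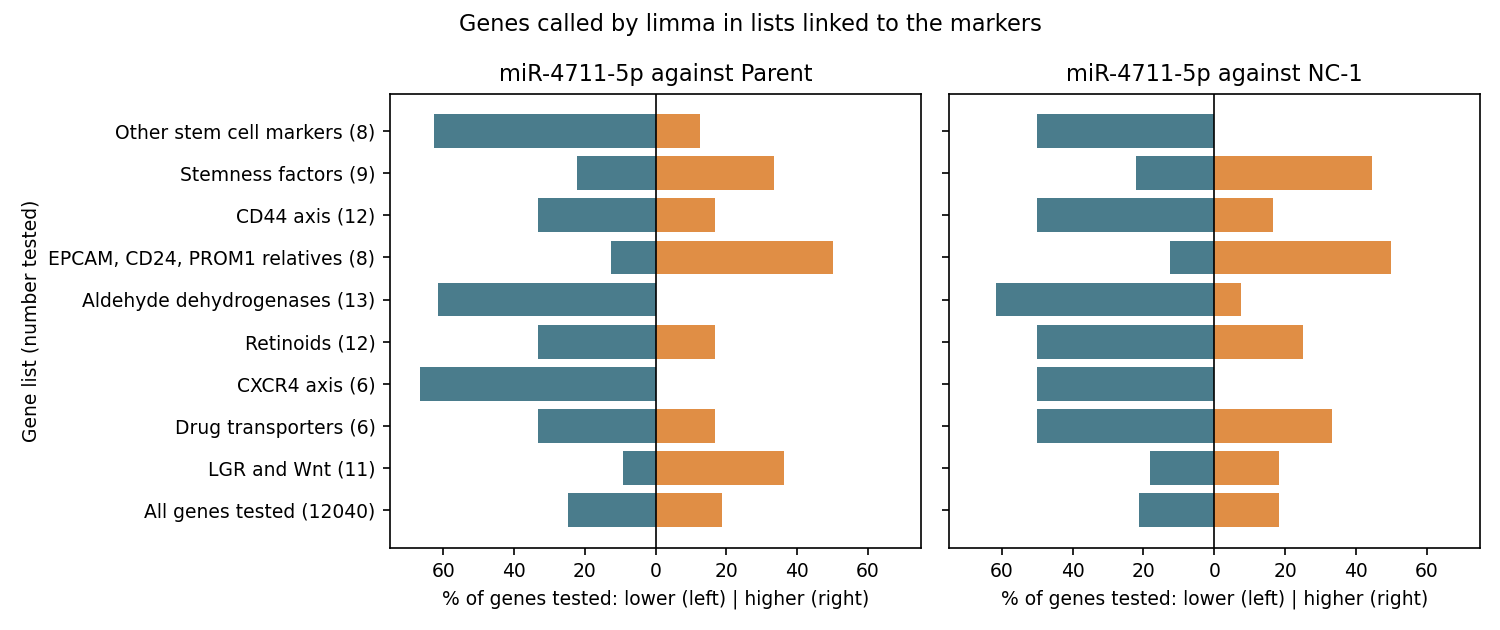
Percent of the tested genes of each list that limma called lower (bars to the left) or higher (bars to the right) with miR-4711-5p against Parent and against NC-1, with the number tested in parentheses. No aldehyde dehydrogenase or CXCR4 partner is called higher against Parent, and among all 12040 tested genes 24.7% are lower and 18.7% higher against Parent and 21.2% and 18.4% against NC-1.

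Over the 6 libraries, the genes whose log2(FPKM + 1) followed each tested member most closely were found among genes with an SD of at least 0.2. They are a description over libraries that share their groups. MUC4, a mucin, and SDHD followed CD44 with a Pearson r of 0.993 and 0.991. CD24 was followed by CCNDBP1 and PRKAB1, both with 0.997, and EPCAM by HKR1 with 0.998 and RTKN with 0.994. RPS4X and FAM207A followed ALDH1A3 with 0.994 and 0.989. For ABCG2 these were IDH1 with 0.997 and ABCC3, one of the listed multidrug transporters, with 0.995. Each was picked from 3751 or 3752 candidates. An r above 0.99 was reached by 2 candidates for CD44, 14 for CD24, 3 for EPCAM, 1 for ALDH1A3 and 16 for ABCG2.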

How the data were processed

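RNA from BxPC-3 cells was measured in 6 libraries (TruSeq stranded mRNA, 75-base single-end reads). The authors deposited FPKM per gene symbol, mapped to hg19 and normalised for length and library size. The submitters' processing notes list TopHat2 2.1.1, Bowtie2 2.3.5.1, SAMtools 1.2, Cuffdiff and Cufflinks 2.2.1, the study's methods give other versions of the first 3 and Cuffnorm, and the annotation was not given in the sources used here. Because FPKM hold no counts, count models were left out, and the depth in reads is unknown.

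Values were tested with limma 3.58.1 (R 4.3.3) on log2(FPKM + 1) for genes that averaged 1 FPKM or more. All 3 groups shared 1 fit with a trended prior (residual degrees of freedom 3, prior degrees of freedom 4.15). Tests were two-sided with Benjamini-Hochberg adjustment over 12040 genes. A fold is a ratio of mean FPKM. An exact permutation test of 2 against 2 libraries cannot go below p = 0.333, so the p-values depend on limma sharing the spread between genes. The fit was run on simulated data with independent noise drawn from the fitted trend of the spread. That run checked that planted changes were found with the right sign, and it is no check of the p-values of these libraries. The rest used Python 3.11.15, pandas 2.3.3 and scipy 1.17.1. Reads of low genes were recovered from the most common ratio of values under 0.1 FPKM, on which 29.0% to 36.7% of 854 to 976 genes lay, with a tolerance of 0.1 from a whole number.

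The members and lists were chosen with earlier results of these data known. The text names all members, KLF5, and from each list genes called in 1 direction in both comparisons of miR-4711-5p, at most 4 by size against Parent, and some of these genes are not reported here. CXCL12, ACKR3 and ABCB1 were named after their values were seen. The alternatives were another pseudocount, no filter, median-of-ratios scaling, a replicate block, only the 2 groups compared, no trend, a 1.5-fold limit, each library left out, and equal FPKM totals.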

Additional observations from a re-analysis of the deposited data

How the results depend on the processing

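No called marker changed direction under any alternative. ALDH1A3 against Parent went from -0.05 to 0.0935 and CD44 in NC-1 against Parent from -0.07 to 0.018 with equal FPKM totals, neither of them called. That scaling also made EPCAM called against Parent (0.24) and ended the call of ALDH1A3 in NC-1 against Parent (-0.0784). It moved the ratio of mean FPKM against Parent to 0.870 for CD44, 0.719 for CD24, 1.19 for EPCAM and 1.07 for ALDH1A3, against NC-1 to 1.23 for EPCAM and 1.13 for ALDH1A3, and in NC-1 against Parent to 0.967 for EPCAM and 0.947 for ALDH1A3. Median-of-ratios scaling made EPCAM called against Parent (0.13). A pseudocount of 0.1 changed no call. Without the filter, with 26255 genes tested, fewer genes were called: 3192, 2841 and 843 genes against Parent, against NC-1 and in NC-1 against Parent. Markers called were then 2 against NC-1 and 0 in NC-1 against Parent, where the main fit had 5 and 3. Of 119 listed genes, 9 were called in the last comparison, beside the 843 of all 26255 genes. The log2 differences that lost their call there were ABCG2 -0.41 against Parent, CD44 -0.27, CD24 -0.34 and ALDH1A3 0.12 against NC-1, and CD24 -0.27, ALDH1A3 -0.16 and ABCG2 0.48 in NC-1 against Parent. A 1.5-fold limit left 1, 1 and 0 markers, 1112, 976 and 298 of all 12040 genes, and 17, 16 and 3 of 85 listed genes. In every fit with the filter, 85 listed genes were tested. The main fit called 48 of them against Parent, where it called 43.4% of all tested genes. With only the 2 groups compared, 19 of 85 listed genes were called in NC-1 against Parent, where the main fit called 27.2% of all tested genes. ALDH1A3 against NC-1 (0.12) was then not called. Without the trend ALDH1A3 lost its call against NC-1 (0.12) and in NC-1 against Parent (-0.16). The causes of these changes were not tested.

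With 1 library left out, all genes called ranged from 3164 to 5135 against Parent, from 2815 to 4639 against NC-1 and from 1355 to 2296 in NC-1 against Parent. Markers called ranged from 3 to 4 against NC-1 and from 1 to 3 in NC-1 against Parent, and listed genes from 13 to 22 in the last. Some markers lost a call in at least 1 of these 6 fits, and their log2 differences are given over all 6, with those that kept the call. They ranged from -0.50 to -0.33 for ABCG2 against Parent, from -0.34 to -0.21 for CD44 and from 0.0974 to 0.14 for ALDH1A3 against NC-1. In NC-1 against Parent they ranged from -0.34 to -0.21 for CD24, from -0.18 to -0.15 for ALDH1A3 and from 0.40 to 0.57 for ABCG2. A group left with 1 library was assumed to vary like the others. Markers called were 3 against NC-1 without miR-4711-5p replicate 2, and 1 in NC-1 against Parent without Parent replicate 1, Parent replicate 2 or NC-1 replicate 1.

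Libraries with the same replicate number did not deviate together (correlations of 0.061, 0.0030 and -0.0089), so the number was not taken as a pairing. With the replicate block, 4983, 4564 and 2864 of all genes were called, and of the markers ALDH1A3 against NC-1 alone lost its call (0.12, limma adjusted p = 0.0574). At this depth PROM1 and LGR5 had too few reads to compare, and the intervals of the CXCR4 ratios included 1.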
